A study of Mus musculus with 20 samples.

Results

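The regions described here were open chromatin sites called in every wild type library of mouse C2C12 cells at D0 and D1 and in no Setd2 knockout library of those days. The 20 deposited lists hold 787806 peaks, and joining peaks that overlap by 1 bp or more gave 101352 regions. Of 99411 regions called in at least 1 of the 12 D0 and D1 lists, 989 had a peak in all 6 wild type lists and in none of the 6 knockout lists, which is 0.995%. These regions are called members below. They made up 3.1% of the 31947 regions called in all 6 wild type lists of those days. The opposite set, called in all 6 knockout lists and in no wild type list, held 358 regions (0.36%). The members were chosen by their calls at D0 and D1, so their presence in wild type lists and absence from knockout lists of those days is a description and was not tested. The rule did not ask for calls at D5, position, chromosome or promoter sequence. Peaks of the D5 lists did take part in the joining that set the borders of regions.

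ATAC-seq inserts sequencing adapters into accessible DNA with a transposase, and a peak marks a site where insertions pile up. C2C12 is an established line of mouse myoblasts, muscle precursor cells that can fuse into myotubes. Setd2 is the enzyme that places trimethylation on lysine 36 of histone H3, a mark laid down over the bodies of transcribed genes behind the elongating polymerase. Enhancers, which often lie inside introns or between genes, gain and lose accessibility as myoblasts differentiate, whereas promoters of widely used genes tend to stay open.

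Wild type (WT) and Setd2 knockout (KO) cells were each profiled on D0, where the labels name no medium. On D1 and D5 they were in 2 media, control (CTL) or methionine-restricted (MR), with 2 libraries in each of 10 groups. WT libraries were replicates 1 and 2, while the KO libraries of a group came from 2 lines, called line 1 and line 2, with 1 library each. How Setd2 was inactivated and whether a line is 1 clone are not given in the sources used here, nothing states that the WT replicates were separate cultures, and a peak list does not measure the loss of Setd2. The D0, D1 CTL and D1 MR libraries are called early below.

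Of the 989 regions, 967 lay on chromosomes covered by a table of RefSeq promoters, windows of 250 bases before to 50 after a gene's start on assembly GRCm38.p6. Among these, 48 (4.96%) overlapped 55 such windows of 52 genes. The overlap of region and promoter is printed for 6 of them, 5′ to 3′ on the gene's strand and only for bases before the start. Sema6c, Gm10390 and Kcnk13 were chosen because their regions were called in all 4 WT libraries of D5 and hold an E-box, and Dusp13, Synpo2l and Klhl31 because the genes belong to skeletal muscle. They were picked after their values were seen. Capitals mark the E-boxes CAGCTG and CACCTG, searched on both strands (CACCTG reads CAGGTG on the other), which are core sequences bound by MyoD and other basic helix-loop-helix factors. A match is a description of the letters, not evidence of binding.
Sema6c, a transmembrane semaphorin, chr3:95164089-95164290, plus strand: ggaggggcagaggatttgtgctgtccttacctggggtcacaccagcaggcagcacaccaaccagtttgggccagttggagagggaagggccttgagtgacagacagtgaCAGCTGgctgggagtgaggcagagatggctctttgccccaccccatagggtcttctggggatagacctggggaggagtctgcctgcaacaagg
Gm10390, a predicted gene inside Rbm19, chr5:120139264-120139513, minus strand: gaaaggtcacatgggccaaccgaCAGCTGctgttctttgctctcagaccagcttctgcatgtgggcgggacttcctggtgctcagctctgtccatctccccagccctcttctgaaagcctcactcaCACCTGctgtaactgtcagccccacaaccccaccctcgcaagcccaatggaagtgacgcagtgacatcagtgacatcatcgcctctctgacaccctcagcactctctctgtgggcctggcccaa
Kcnk13, a potassium channel subunit, chr12:99964390-99964498, plus strand: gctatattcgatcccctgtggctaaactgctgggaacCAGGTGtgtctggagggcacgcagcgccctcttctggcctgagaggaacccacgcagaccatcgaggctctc
Dusp13, a dual-specificity phosphatase of muscle and testis, chr14:21748623-21748768, minus strand: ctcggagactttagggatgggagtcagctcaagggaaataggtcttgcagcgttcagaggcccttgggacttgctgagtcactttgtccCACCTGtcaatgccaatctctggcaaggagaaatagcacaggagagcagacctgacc
Synpo2l, an actin-binding protein of the sarcomere's Z-disc, chr14:20664575-20664770, minus strand: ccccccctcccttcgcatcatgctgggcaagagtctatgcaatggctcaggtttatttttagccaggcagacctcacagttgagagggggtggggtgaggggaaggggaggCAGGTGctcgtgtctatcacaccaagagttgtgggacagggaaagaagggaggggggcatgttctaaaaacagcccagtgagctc
Klhl31, a kelch protein of striated muscle, chr9:77636482-77636731, plus strand, with no E-box of these kinds: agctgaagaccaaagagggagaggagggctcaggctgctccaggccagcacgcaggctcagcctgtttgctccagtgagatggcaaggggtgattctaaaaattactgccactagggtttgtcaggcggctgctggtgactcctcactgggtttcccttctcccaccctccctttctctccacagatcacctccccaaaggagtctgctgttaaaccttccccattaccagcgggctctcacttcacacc

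Early WT lists held 43058 to 69881 peaks, lists of KO line 1 held 48460 to 63530 and lists of KO line 2 held 30629 to 46664. The background recovered from each list, read as the mean number of fragments over a position, was 3.17 to 5.38 in early WT libraries, 3.15 to 5.2 in line 1 and 2.30 to 2.76 in line 2, so line 2 was shallower than every early WT library. At D5 the 4 WT lists held 20847 to 39538 peaks, on a background of 5.17 to 5.88. Line 2 held 29963 in CTL and 22062 in MR at D5, on a background of 1.84 and 1.42, so it was shallower than every WT library there too. The D5 lists of KO line 1 held 644 and 1881 peaks on a background of 0.128 and 0.101 and were too shallow to show whether a region was open. Of 9 myoblast marker genes, 6 carried a gene-end peak in every early WT list (Myod1, Des, Cdh15, Chrna1, Cdh2 and Mymk) and 4 had one in all 6 early KO lists. Myf5 and Pax7 had one in 0 early lists of either genotype, and Myog in 4 early WT and 0 early KO lists. No marker of fibroblasts, bone, fat or neurons had one in all 6 lists of a genotype, although the fibroblast gene Osr1 had one in 5 early WT and 4 early KO lists.

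Most of the 989 regions were weak peaks of the WT lists. Strength was ranked within each list by the authors' −log10 q-value and averaged over the 6 early WT lists, and the regions called in all 6 lists were split by this rank into 4 classes of equal size. Of the members, 636 (64.3%) fell in the weakest class, 273 in the second, 69 in the third and 11 in the strongest. The share of such regions that were absent from all early KO lists was 7.96% in the weakest class, 3.42% and 0.864% in the next ones and 0.138% in the strongest. The authors' fold enrichment, a peak's height over background within its own list, had a median over members of 3.57 and 3.65 in the WT D0 lists against 4.77 and 5.15 over regions called in all 6. In the WT D1 CTL lists the medians were 5.22 and 4.23 against 6.37 and 5.27. In the WT D1 MR lists they were 5.03 and 4.69 against 6.91 and 6.48. Members were also short, with a median length of 188 bp (72 to 1247) against 371 bp. Folds depend on the depth of a list and are not compared between lists here.

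**Figure D1:**
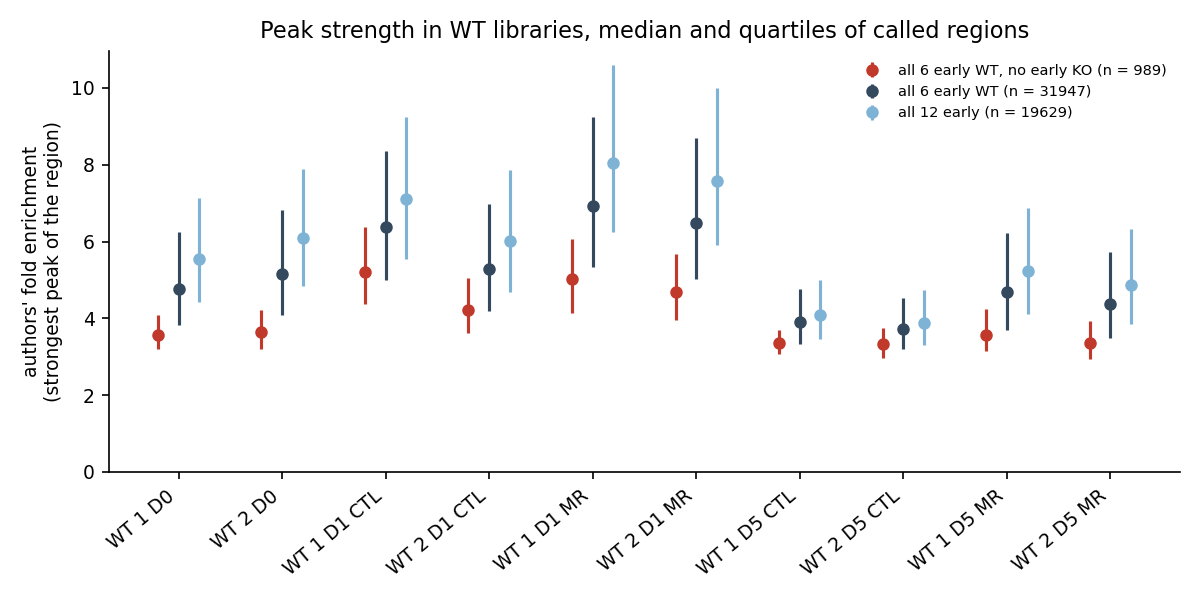
The authors' fold enrichment of the strongest peak of a region (y axis) in each WT library (x axis), as the median (points) and quartiles (bars) over the regions called there, for the 989 members, the 31947 regions of all 6 early WT lists and the 19629 regions of all 12 early lists. Members sit lowest in each of the 10 libraries, with medians from 3.32 to 5.22.

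The edge of the rule was crowded. Another 864 regions were called in 5 of 6 early WT lists and in no early KO list, and the missing list was WT replicate 1 D0 for 387 of them and WT replicate 2 D1 CTL for 196. A further 841 regions were called in all 6 WT lists and in 1 KO list, which was line 2 D1 CTL for 285, line 1 D1 CTL for 258 and line 1 D0 for 201. The median strength rank was 43.1 percent for members, 30.7 percent for regions that missed 1 WT call and 46.1 percent for regions with 1 KO call. Just inside the rule, the weakest member lay at an end of Slc39a5, a zinc transporter gene (chr10:128396338-128396461), with folds of 2.88 to 3.14 in the early WT lists and the nearest early KO peak 267 bp away. Just outside it, a strong region inside Plcb4, a phospholipase C gene (chr2:135984103-135984260), had folds of 6.71 to 16.6 in the early WT lists and a call in 1 KO list at a −log10 q-value of 7.0.

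The count of regions rested on which libraries were asked. Absence from the 3 lists of line 1, whatever line 2 showed, held for 1734 of the 31947 regions of all 6 WT lists (5.43%), and absence from the 3 lists of line 2 for 3164 (9.90%). The 989 regions were 57.0% of the first group and 31.3% of the second. With the WT lists of replicate 1 only, 1651 regions met the rule, and with those of replicate 2 only, 1464. When each list was cut to its 20000 strongest peaks, 371 regions met the rule and 35 of them were among the 989. Under that limit a region counts as absent from a KO list even where a weaker KO peak was deposited. The nearest early KO peak lay at a median of 7.06 kb from a member (quartiles 2.21 and 18 kb). For 57 members (5.76%) it was within 500 bp, and for 37 it was more than 100 kb away.

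At D5, which the rule did not use, every WT library called more members than either library of KO line 2 did. WT D5 CTL libraries called 163 and 145 members (16.5% and 14.7%), where they called 57.7% and 55.2% of the regions of all 6 early WT lists. WT D5 MR libraries called 449 and 464 members (45.4% and 46.9%), against 84% and 85.1%. KO line 2 called 8 members in CTL (0.809%) and 3 in MR (0.303%), where it called 66.3% and 53.7% of the regions of all 6 WT lists. The shallow KO line 1 libraries called 0 members in either medium, beside 1.96% and 5.59% of the regions of all 6 WT lists. In CTL, line 2 thus called more of the regions of all 6 WT lists than either WT library did, yet fewer members, and in MR it called fewer of both. Line 2 at D5 is the line whose early lists the rule used, so its D5 calls repeat the line and not the genotype. Line 2 has 1 library in each medium, so this difference has no replicate check within line 2 and was not tested. Its libraries were also shallower than the WT D5 libraries, and the part of depth in the difference was not tested either. The share in line 2 also moved with the rule: it was 0.910% in at least 1 medium under the rule, 4.68% without the lists of line 1 and 5.66% with the 20000 strongest peaks per list, where line 2 called 83.9% of the regions of all 6 WT lists.

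**Figure D2:**
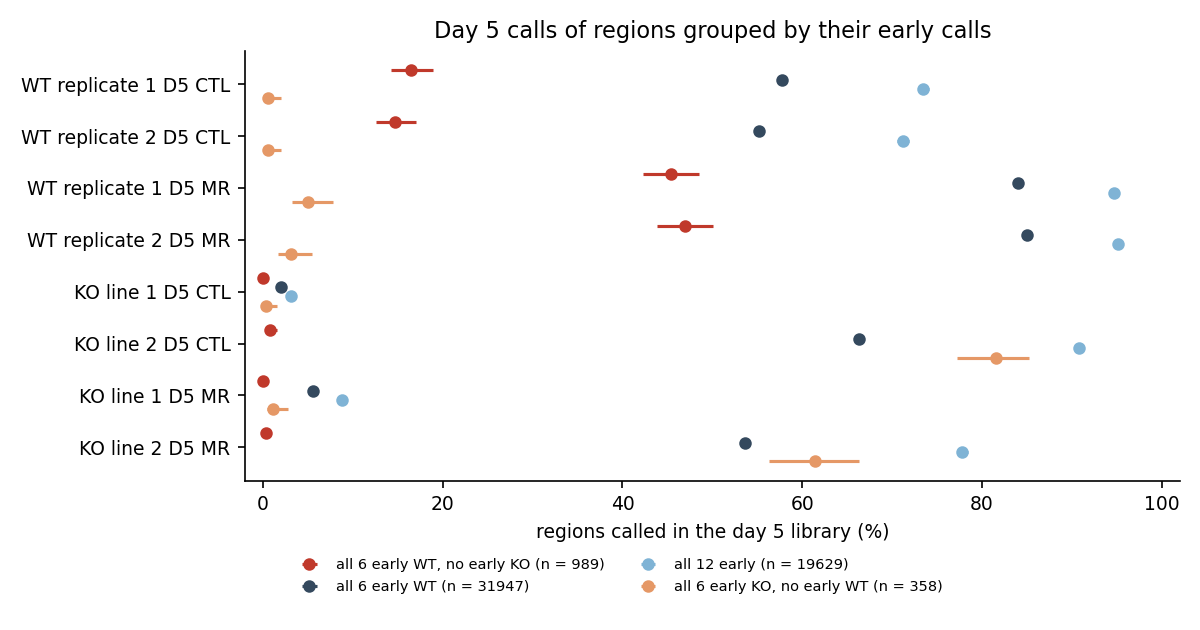
Percent of regions called in each D5 library (x axis) for the 989 members, the regions of all 6 early WT lists, those of all 12 early lists and the 358 regions of all 6 early KO lists only, with Wilson 95% intervals that cover counting error only. Members are called at 14.7% to 46.9% in WT libraries and at under 1% in line 2, where the KO-only regions reach 81.6% and 61.5%.

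The mean over the 2 WT libraries was 15.6% ± 1.29 of members in D5 CTL and 46.2% ± 1.07 in D5 MR (SD, n = 2 libraries). The CTL share moved beyond this SD with the rule, to 8.33% where peaks had to cover 50% of a region and to 49.1% with the 20000 strongest peaks per list, beside 31.2% and 85% of the regions of all 6 WT lists. Regions of all 6 early WT lists showed the same order, with 56.5% ± 1.77 in CTL and 84.5% ± 0.724 in MR. The MR lists were also the longer ones, with 39538 and 39263 peaks against 22465 and 20847 in CTL, and the part of that difference in list length in the members' calls was not tested. Both MR libraries and neither CTL library called 226 members (22.9%, against 20.3% of the regions of all 6 WT lists). The reverse held for 3 members (0.303%, against 0.263%). No WT D5 library called 455 members (46.0%, against 10.6%), and all 4 called 101 (10.2%, against 49.5%).

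The shares differed with the strength of a region. In the weakest class, WT D5 CTL libraries called on average 9.91% of members and 22.3% of all regions of that class. The shares were 22.3% and 42.7% in the second class, 35.5% and 67.9% in the third, and 50% and 93.0% in the strongest. In WT D5 MR the shares of members rose in the same order, through 39.0%, 54.9%, 71.0% and 86.4%, as did those of all regions, through 62.4%, 82.1%, 94.3% and 99.3%. KO line 2 D5 CTL called 8 of 636 members in the weakest class (1.26%), where it called 40.3% of all regions. It called 0 members in the other classes, where it called 58.1%, 75.3% and 91.6% of all regions.

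The 9 members with a line 2 call at D5 were weak there, with −log10 q-values of 1.17 to 3.99 against a lowest listed value of 1.0. Their share, 0.910%, stood beside 69% of the regions of all 6 WT lists. They lay in Fam83g, Cavin1, Sdk2, Oplah and Upp2, or had Pgf, Smim20, Nsmce1 and Atxn2l as the nearest gene. The regions at Upp2, a uridine phosphorylase gene, and near Nsmce1, a gene of the SMC5/6 complex, were called in both line 2 libraries and in both WT D5 MR libraries. At Upp2 (chr2:58708799-58709356) the −log10 q-values were 17.8 and 12 in WT D5 MR and 1.97 and 1.73 in line 2 D5 CTL and MR. These genes are named because they are few, after their values were seen.

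Members lay in gene bodies, away from gene ends, more often than the other regions did. Of the 989, 560 lay inside a protein-coding gene and more than 1 kb from any gene end (56.6%, Wilson 95% interval 53.5 to 59.7%). This share was 40.8% for the regions of all 6 early WT lists and 37.8% for those of all 12 early lists. Only 90 lay within 1 kb of a gene end (9.10%, 7.46 to 11.1%), against 28.9% and 33.1%. The other 339 (34.3%, against 30.4% and 29.1%) lay between genes, so members lay in or within 1 kb of a gene no more often than those regions. Their median distance to the nearest gene was 17.5 kb, against 22.5 kb for the regions of all 6 WT lists. The 358 KO-only regions also had few gene ends (5.59%), but 54.7% of them were between genes, at a median of 120 kb. From the weakest to the strongest class, the gene-body share of members was 55.2%, 61.2%, 52.2% and 54.5% (the last over 11 members), and that of all regions of the class was 44.0%, 42.9%, 39.0% and 37.1%. The part of the members' shorter length in these shares was not tested. Whether a region is exonic or intronic was not read, since no exon annotation was used.

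**Figure D3:**
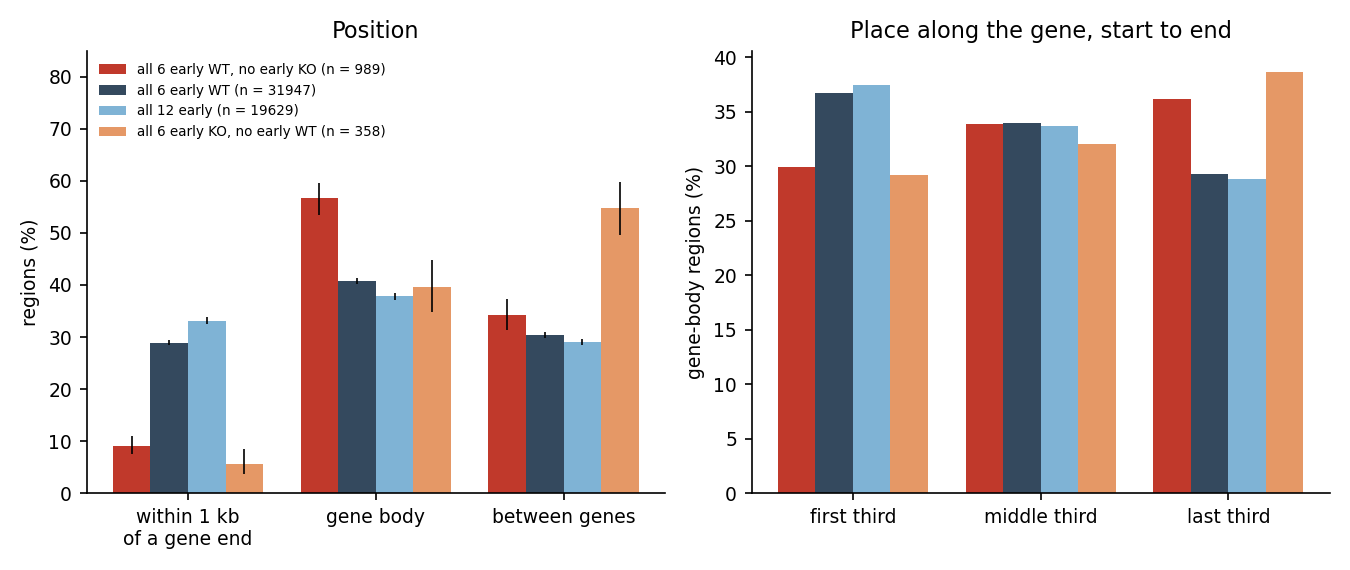
Left, percent of regions within 1 kb of a gene end, in a gene body or between genes (bars, with Wilson 95% intervals) for the members and 3 comparison sets; right, percent of gene-body regions by their place along the gene, for genes whose strand is known, without intervals. Members are highest in gene bodies (56.6%) and spread with 30.0%, 33.9% and 36.2% from the start to the end of the gene.

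The 560 gene-body members sat in 482 genes. Counting a gene once for each of its regions, the median gene length was 100 kb, against 90.7 kb for the regions of all 6 WT lists. Along the 437 whose gene has a known strand, 131 lay in the part nearest the start (30.0%), 148 in the middle (33.9%) and 158 in the part nearest the end (36.2%), each part being an equal length of the gene. For the 10187 such regions of all 6 WT lists the order was the opposite, with 36.8%, 34.0% and 29.3%. The 106 KO-only regions with a known strand had the same order as the members, with 29.2%, 32.1% and 38.7%. Members called in all 4 WT D5 libraries had a median length of 282 bp and a gene-body share of 65.3%. Those called in both MR libraries and neither CTL library had 217 bp and 52.2%, and those with no WT D5 call had 151 bp and 54.7%. Over the regions of all 6 WT lists, length fell in the same order (485, 288 and 192 bp) and the gene-body share rose (35.8%, 44.7% and 50%). Regions were merged over the lists of all days, so D5 peaks can lengthen a region, and its length is not independent of its D5 calls.

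Chromosomes contributed unequally. On chromosome 12, 80 of 1292 regions of all 6 early WT lists were members (6.19%, 5.0 to 7.64%), the highest share of any chromosome. Chromosome 17 followed with 72 members (4.75%), chromosome 10 with 78 (4.29%), chromosome 5 with 83 (4.12%), chromosome 19 with 44 (3.95%) and chromosome 2 with 95 (3.90%). Chromosomes 14 (2.94%) and 13 (2.72%) were close to the 3.1% of all chromosomes, and chromosome 3 was lowest with 28 members (1.79%). Peaks rank lowest in line 2 on chromosomes 10, 13, 14 and 17, and below WT in line 1 on 10 and 12. Together these 5 chromosomes held 298 members (30.1%, 27.4 to 33.1%), against 22.0% of the regions of all 6 WT lists and 17.6% of the KO-only regions. The group was chosen with earlier results of these data known. Its ranks and the calls come from the same early libraries, so the higher share is a description. The remaining 691 members were 2.77% of the regions of all 6 WT lists on the other chromosomes, against 4.23% on these 5.

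The rank shifts behind that grouping differed between the lines. They were measured on other regions of the same early libraries, the 19629 called in all 12 early lists. In line 2 their median rank minus the WT rank was −11.4 percentage points on chromosome 10, −10.1 on 13, −12.5 on 14 and −13.2 on 17, and −1.15 to −8.90 on the remaining chromosomes. In line 1 it was below 0 on chromosomes 12 (−2.11) and 10 (−0.923) alone and 0.987 to 3.10 on the others. Absence from a line followed these shifts in part. On chromosome 12, 12.2% of the regions of all 6 WT lists were absent from line 1, against 5.43% over all chromosomes, and 12.2% were also absent from line 2, where its rank shift was −5.40. On chromosome 10, 5.93% were absent from line 1. On chromosomes 10, 13, 14 and 17, 14.1%, 12.8%, 14.1% and 15.4% were absent from line 2, against 9.90%. Chromosome 5, with no lower rank in line 1 (1.74), had the second highest absence there (7.54%). The part of these rank shifts in the members' spread was not tested. Without the 5 chromosomes, 691 members remained, with WT D5 calls of 14.3% in CTL and 46.1% in MR, a gene-end share of 8.97% and a gene-body share of 55.9%.

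**Figure D4:**
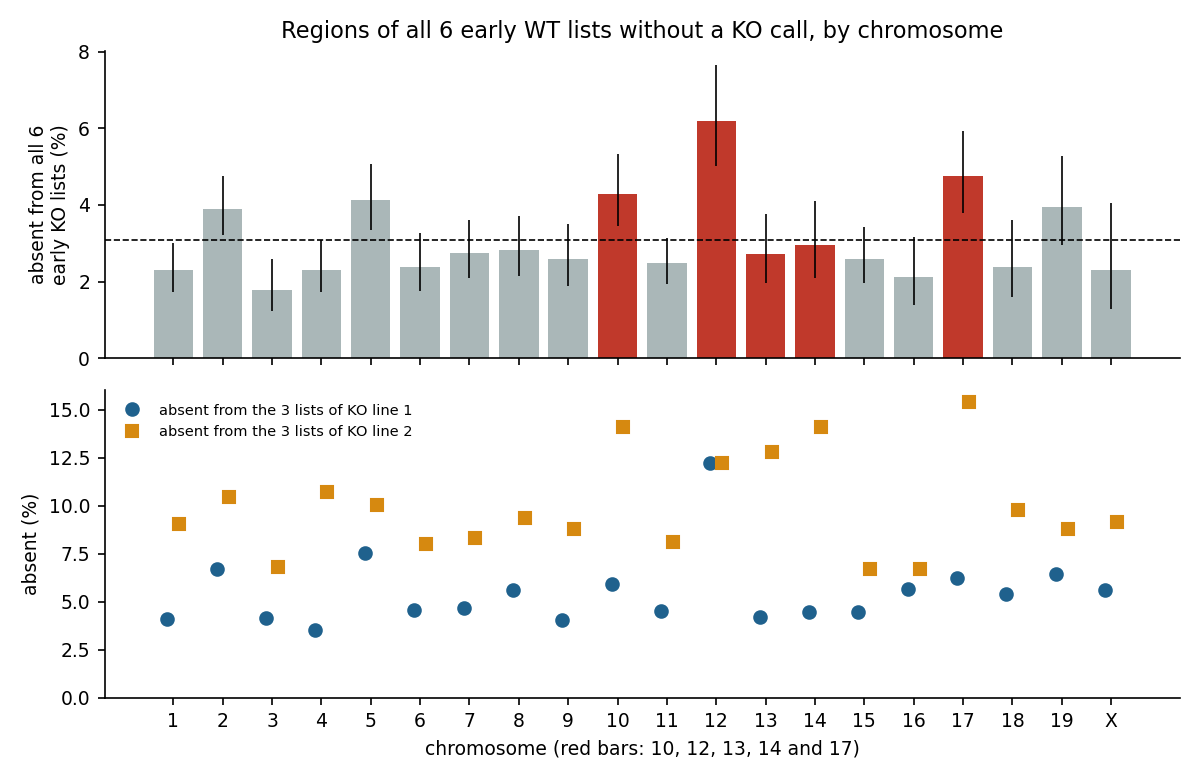
Upper panel, percent of the regions of all 6 early WT lists that no early KO list called, by chromosome (bars, Wilson 95% intervals, dashed line 3.1% over all); lower panel, percent absent from the 3 early lists of each KO line. Chromosome 12 is highest for both lines together (6.19%) and for line 1 (12.2%), chromosome 17 for line 2 (15.4%).

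Most members had no other member as a neighbour. Counting along the regions of all 6 WT lists, 825 members stood alone between regions that were not members, 116 were in runs of 2, 30 in runs of 3, and 4 runs were longer. Members were 3.1% of these regions, and how many would stand alone if spread evenly was not computed, so no scatter is read from these counts. Of 621 windows of 1 Mb with a member, 403 held 1 member and 17 held 5 or more. Among the densest windows were chromosome 12 from 100 to 101 Mb, with 9 members among 38 regions of all 6 WT lists, and chromosome 5 from 35 to 36 Mb, with 8 of 56. By gene, 558 genes had a member inside or within 1 kb, of which 487 had 1 and 60 had 2.

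Ccdc88c, the gene of the Dishevelled-binding protein Daple, which acts in Wnt signalling, held the most members. Of 9 regions of all 6 WT lists in this gene of 118 kb on chromosome 12, 7 were members and 0 were called in all 12 early lists. Consecutive members spanned 17.6 kb (chr12:100975840-100993406), where 0 of 8 merged regions had an early KO call. The strongest (chr12:101008008-101008510) had folds of 6.15 and 8.65 in WT D0, 9.71 and 8.71 in D1 CTL, and 8.86 and 8.84 in D1 MR. At D5 its folds were 4.43 and 3.93 in WT CTL and 8.27 and 7.19 in WT MR, with no peak in line 2. All 10 WT lists thus held a peak and none of the early or line 2 KO lists did. Over the 7 members, 3 were called in all 4 WT D5 libraries and 2 in none of them.

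Ccnd3, which encodes cyclin D3, a cell cycle regulator that stays on in differentiating myotubes, held 3 members within 21.0 kb (chr17:47521647-47542617). All 3 were called in the 4 WT D5 libraries, although 4 other regions of the gene were called in all 12 early lists. Their folds ran from 2.99 to 8.98 in the early WT lists and from 3.29 to 6.95 at D5. The gene thus held regions that every early list called beside regions that no KO list called, on the chromosome with the lowest rank shift in line 2.

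The other genes with many members were Bcas3 (4 of 8 regions of all 6 WT lists), Ptprn2, a phosphatase-like protein of secretory vesicles (4 of 6), and Sorcs2, a sortilin-family receptor (4 of 26). Cdh13, Garnl3, Kcnab2, Tbc1d22a and Vps13b held 3 members each. In Kcnab2, a potassium channel subunit gene on chromosome 4, and in Vps13b, a gene of Golgi lipid transport on chromosome 15, 3 of 4 regions were members. Of the members in Bcas3, Ptprn2 and Sorcs2, 0 were called in all 4 WT D5 libraries, beside 10.2% of all members. With so few members, nothing particular to these genes is read from this count. On chromosome 8, 5 consecutive members ran over 167 kb past Hsd17b2, Plcg2 and Sdr42e1 (chr8:117576183-117742948). This run and the genes with 3 members other than Ccnd3 were also named after their values were seen.

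**Figure D5:**
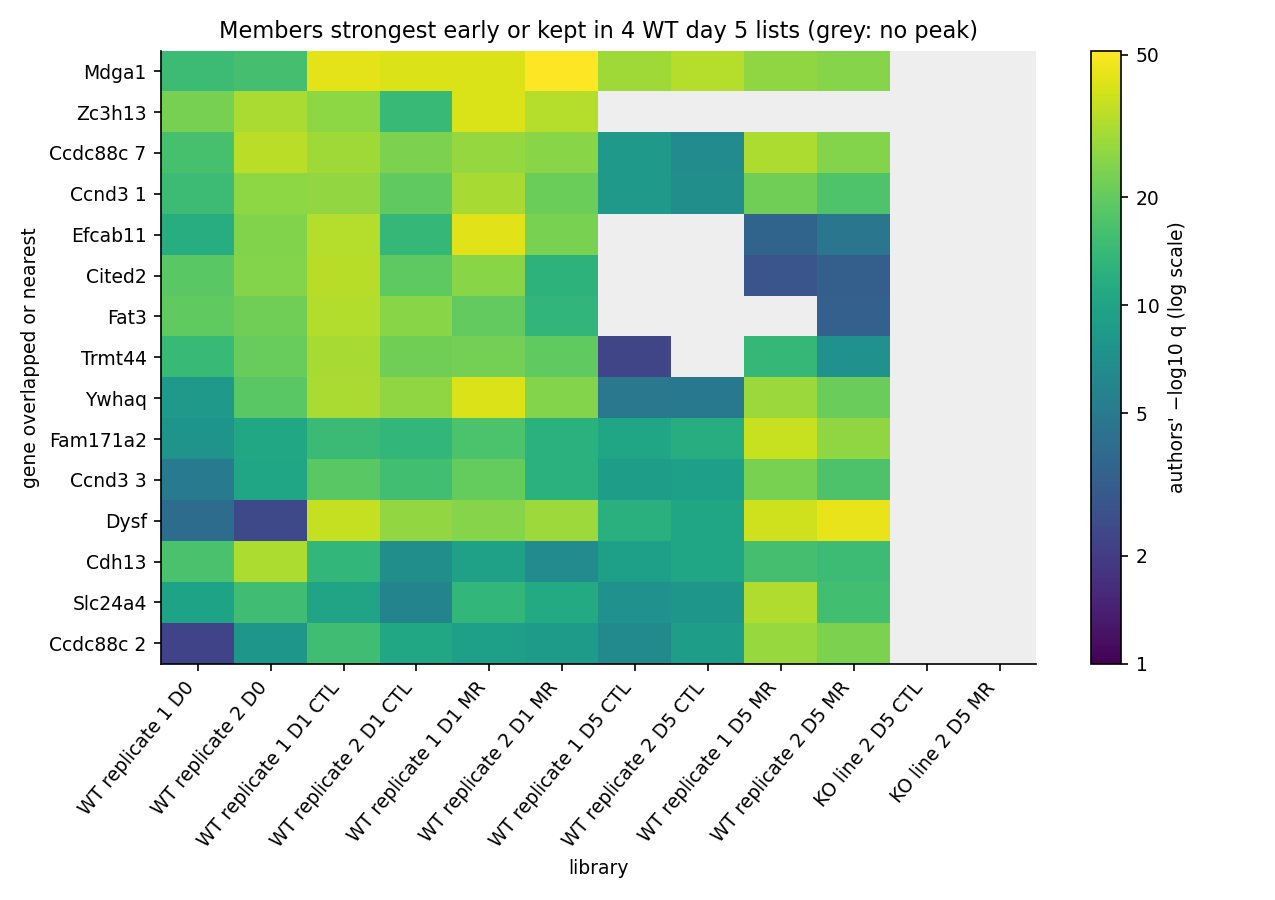
The authors' −log10 q-value (colour, log scale; grey where the list has no peak) in each WT library and in the D5 libraries of KO line 2, for 15 of the members with the highest early WT rank or with the highest rank at D5 among those called in all 4 WT D5 libraries. Rows are named by the gene overlapped or nearest, and no line 2 library has a peak in any row.

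Among the strongest members, Mdga1, a membrane-anchored adhesion protein of the immunoglobulin family, had a region 68 bp from its end (chr17:29827676-29827888). Its folds were 5.86 and 5.74 in WT D0, 12.6 and 12.4 in D1 CTL, and 11.5 and 14.2 in D1 MR. At D5 it kept folds of 8.19 and 8.33 in WT CTL and 7.67 and 7.29 in WT MR. The nearest early KO peak lay 110512 bp away. The region in Zc3h13, part of the RNA m6A methyltransferase complex (chr14:75328121-75328366), had early WT folds of 6.77 to 11.8 and was called in 0 WT D5 libraries. These strong early members therefore ended differently, the former in all WT D5 lists and the latter in none.

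Of the other strong members, a region 86.0 kb from Ywhaq, a 14-3-3 protein gene, had early WT folds with a median of 9.07 and was called in all 4 WT D5 libraries. Regions 5.29 kb from Efcab11 and 123 kb from Cited2, a transcriptional coregulator, were called in both WT D5 MR libraries and in neither WT D5 CTL library. A region 1.43 kb from Trmt44, a tRNA methyltransferase gene, was called in 3 WT D5 libraries, and one inside Fat3, an atypical cadherin gene, in 1.

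Members called in all 4 WT D5 libraries and in neither line 2 library numbered 100 (10.1%), beside 6.33% of the regions of all 6 early WT lists. All 4 WT D5 libraries alone called 10.2% of members against 49.5% of those regions, and line 2 called 0.910% against 69%. The rule had already asked for no early call in line 2, so no excess of members is read from the 10.1%. Of these 100, the one in Dysf, the gene of dysferlin, which reseals muscle membranes (chr6:84022057-84022335), had folds of 3.46 and 2.84 in WT D0 and of 11.3 and 9.51 in D1 CTL. Its folds were 8.58 and 9.79 in D1 MR, 5.23 and 4.70 in D5 CTL, and 9.27 and 10.1 in D5 MR. It ranked low within the D0 lists and high within the D1 and D5 lists. Others of this group lay in Fam171a2, Cdh13 and Slc24a4, a sodium-calcium exchanger gene, with median early WT folds of 6.17, 5.59 and 5.45.

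Genes of the contractile apparatus had 9 members, 6.47% of their 139 regions of all 6 early WT lists, beside 3.10% over all protein-coding genes at the same limit of 100 kb. These were spread over 8 genes of 45 with such a region, and 7 of the 9 were called in at least 1 WT D5 library and 0 in line 2 at D5. Over all protein-coding genes, 511 of 940 members were called in at least 1 WT D5 library and 9 in line 2. The lists of genes were chosen with earlier results of these data known, so the shares are descriptions. Myh3, the embryonic myosin heavy chain, had a member inside the gene (chr11:67081127-67081635), with folds of 3.95 to 8.21 in the early WT lists and of 3.11, 3.38, 4.67 and 4.23 at D5. Mylpf, the fast regulatory light chain, had one (chr7:127210372-127210698) with early folds of 3.15 to 6.89 and D5 folds of 3.58, 3.65, 5.69 and 5.73. The region 2.71 kb from Myh7, the slow myosin heavy chain, was likewise called in all 4 WT D5 libraries.

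The remaining 6 sarcomere members were called in neither WT D5 CTL library. Those at an end of Mybph, a myosin-binding protein, in Actn3, the α-actinin of fast fibres, at an end of Myom3 and in Myom1, M-band proteins, were called in both WT D5 MR libraries. A second region 17.6 kb from Myom1 and one in Nebl, nebulette, were called in 0 WT D5 libraries. The early WT folds of these 6 members ran from 2.86 to 6.02.

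Members at regulators of the muscle programme were few in number, and for transcription factors their share was near that of all genes. Myogenic transcription factors had 2 of 62 regions (3.23%, beside 3.10% over all protein-coding genes). One lay 7.47 kb from Pax7, a factor of muscle stem cells (chr4:139841003-139841356), and one in Eya2, a coactivator of homeobox factors. The Pax7 region had early WT folds of 3.52 to 6.08 and was called in WT replicate 1 D5 CTL and in WT replicate 2 D5 MR. The Eya2 region was called in 0 WT D5 libraries. Fusion genes had 1 of 108 regions (Dysf), repressors of myogenic factors 0 of 69, AP-1 factors 0 of 45, Hox genes 0 of 37 and housekeeping genes 0 of 45. These lists hold few regions, and nothing particular to them is read from such counts.

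Signalling genes had small numbers too, in most lists at a share near the 3.10% over all protein-coding genes. The Wnt list had 7 of 119 regions (5.88%), at Fzd1, Fzd2 and Lrp5 (receptors), Wnt2 (a ligand), Ror1 and Ror2 (receptors for Wnt5a) and Tcf7l2 (a nuclear effector), and 6 of the 7 were called in a WT D5 library, beside the 511 of 940 over all genes. The Ror1 region (chr4:100238826-100239173) had folds of 4.0 and 3.87 in WT D0, 8.58 and 9.70 in D1 CTL and 7.67 and 8.96 in D1 MR, and was called in all 4 WT D5 libraries at 3.53 to 4.44. An early KO peak lay 366 bp from it. TGF-beta, BMP and activin genes had 4 of 140 (2.86%), among them 2 in Acvr2b, the activin and myostatin receptor, and 1 in Ski, a Smad corepressor. The Acvr2b region at chr9:119425264-119425673 was called in all 4 WT D5 libraries. Notch genes had 3 of 91 (3.30%, at Notch1, Notch2 and Lfng). The FGF, IGF and receptor kinase list had 4 of 133 (3.01%, at Igf1r, Met, Fgf18 and Dusp4).

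The list made for enzymes and readers of methylation of lysine 36 of histone H3 had 5 members among 46 regions (10.9%), in 3 of 19 genes. The share over all protein-coding genes was 3.10%. They lay in or near Dnmt3a, a DNA methyltransferase that binds this mark, Kdm4b, a histone demethylase, and Setd3, a methyltransferase of actin. A Setd3 member lay 35.5 kb from the gene, so the 10.9% is not a share of enzymes and readers of this mark alone. One Dnmt3a region (chr12:3823448-3823898) had early WT folds of 4.01 to 5.99 and was called in all 4 WT D5 libraries, while the other 4 members of the list were called in 0. Dnmt3a and Setd3 lie on chromosome 12, so their members share its higher share of absent regions. Methionine cycle and amino acid response genes had 2 of 87 (2.30%, at Mthfd1 and Ddit4). Collagens, integrins and laminins had 5 of 271 (1.85%) and the Tead, Yap and Runx list 4 of 141 (2.84%). Lists of bone and fat markers had 1 member each (at Runx2 and near Ebf2), and lists of fibroblast and neuronal markers had 0.

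Promoters were rare among members. Beside the 4.96% of members over a RefSeq promoter window stood 24.0% of the regions of all 6 WT lists, 28.8% of those of all 12 early lists and 4.58% of the KO-only regions. Of the 48 promoter members, 9 were called in all 4 WT D5 libraries, 31 in at least 1 and 0 in line 2 at D5, where all members stood at 10.2%, 54.0% and 0.910%. The member at Sema6c (chr3:95164041-95164290) had early WT folds of 4.39 to 7.50, the one at Gm10390 (chr5:120139100-120139584) 4.40 to 12.9 and the one at Kcnk13 (chr12:99964390-99964741) 3.44 to 5.73. At the muscle genes the folds were 3.64 to 6.86 at Dusp13, 3.16 to 5.57 at Synpo2l and 2.78 to 5.59 at Klhl31. Klhl31 was called in all 4 WT D5 libraries, Dusp13 in 3 and Synpo2l in 2.

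Other promoters covered, named after their values were seen, were those of Mamstr, a cofactor of MEF2, of Ano5, a membrane protein of muscle, of Hhatl, of Ak1, an adenylate kinase abundant in muscle, and of Tet1, a methylcytosine dioxygenase. The 52 genes with a covered promoter also included Scnn1g, Ngfr, Pou4f1 and Olfr224. How many of the 52 are muscle genes was not counted, so no excess of muscle promoters is read from the names given. The Mamstr promoter lay in the longest member (chr7:45638754-45640000, 1247 bp), which had early WT folds of 3.75 to 7.40 and was called in all 4 WT D5 libraries. The Ak1 region was called in 0 of these, the Tet1 region in 1, the Ano5 region in 2 and the Hhatl region in 3. An early KO peak lay 3588 bp from the Mamstr member and 28416 bp from the Ano5 member.

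The members' promoter windows differed in letters from those of the other regions. The E-box CAGCTG was present in 21 of 55 windows (38.2%), against 15.8% of the 9702 windows over regions of all 6 WT lists and 16.4% of all promoters in the table. The E-box CACCTG was present in 15 (27.3%), against 15.5% and 20.4%. The TEAD sequence CATTCC was present in 10 (18.2%, against 11.2% and 14.6%) and the AP-1 sequence TGANTCA in 2 (3.64%, against 5.12% and 7.81%). The MEF2 sequence CTATTTATA was present in 0 (against 0.268% and 0.435%). Each was searched on both strands over the whole window of 300 bases, so a match can lie outside the member. The windows held a median of 11 CpG, against 23 over regions of all 6 WT lists, 7 over all promoters and 6 over KO-only regions. The GC box GGGCGG was present in 41.8%, against 69.2%, 36% and 31.6%. The KO-only regions covered 19 windows, of which 5 had CAGCTG (26.3%) and 5 had the AP-1 sequence (26.3%). Windows of neighbouring genes overlap, so the 55 are not independent.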

How the data were processed

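ATAC-seq peaks were deposited as 1 broadPeak list per library, called per library. For every peak the authors deposited 4 values: the score, the ratio of signal to background (fold enrichment), the −log10 p-value and the −log10 q-value. The lowest deposited −log10 q-value was 1.0, a q-value of 0.1. The genome build is GRCm38, per the submitters' processing notes. The aligner, the filters, the transposase shift and the peak caller are not given in the sources used here. Folds and −log10 values served only to describe or rank peaks within their own list.

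Peaks of all lists were merged at 1 bp, and a region counted as called where a peak of the list overlapped it. Positions were read against 21627 protein-coding genes of RefSeq GRCm38.p6: gene end within 1 kb of either end, gene body otherwise inside, else between genes. Listed genes were matched up to 100 kb. The background was solved from the commonest fold and −log10 p pair of each list, assuming a Poisson p-value and a fold of pileup plus 1 over background plus 1, with a misfit of at most 1.60e-05. Intervals are Wilson 95% intervals and cover counting error only. The merging and calling steps were tested on simulated data.

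The members and gene lists were chosen with earlier results of these data known. Regions named are the 12 strongest by mean early WT rank, the 10 strongest at D5 among those in all 4 WT and neither line 2 D5 list, the 6 genes with most members and the 3 densest 1 Mb windows, members at listed genes (all for the muscle and AP-1 lists, up to 3 by rank for the others), and those at the edge of the rule. Members at 3 genes that this rule names are not reported here. Alternatives were the −log10 q limit, the overlap, the distance to KO peaks, the list length, the gene-end distance, the shifted chromosomes and each replicate or line left out. Python 3.11.15, numpy 2.4.6, pandas 2.3.3, scipy 1.17.1 and matplotlib 3.10.9 were used.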

Additional observations from a re-analysis of the deposited data

How the results depend on the processing

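No paired analysis was possible because the results come from no test, and a KO number names a line while a WT number names a replicate. Of 69 recomputed values, 42 stayed within the main interval, SD or 1.5 times the count. At a −log10 q of at least 2, WT D5 MR calls were 43.5% of members. At a limit of 5, with 726 members of which 218 were shared, WT D5 CTL calls were 11.8%, MR calls 40.8% and line 2 calls 0.138%. Where peaks had to cover 50% of a region (714 members, 434 shared), CTL calls were 8.33% and MR calls 41.6%. With the 20000 strongest peaks per list, members numbered 371 (35 shared), CTL calls were 49.1%, MR calls 59.7%, line 2 calls 5.66% and the share on chromosomes 10, 12, 13, 14 and 17 was 34.0%. The shares of all 6-list regions then were 85%, 89.9%, 83.9% and 22.2%. With gene ends counted to 2 kb, their share was 15.3%. Leaving out 1 WT replicate or 1 KO line gave 1464 to 3164 members, with CTL calls of 11.9% to 22.5%, MR calls of 33.6% to 57.0%, line 2 calls of 1.02% to 4.68%, 26.8% to 30.7% on those chromosomes, gene-end shares of 8.95% to 11.5% and gene-body shares of 52.0% to 57.4%. Why these values moved was not tested, apart from the count, which can only grow when lists are left out. Absence of a peak is bounded by depth, which was lowest in line 2 among the early libraries and lower in both KO lines than in WT at D5.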
